A study of Homo sapiens with 6 samples.

Results

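Integrin receptors were represented by 10 genes that were listed by name: ITGA1, ITGA2, ITGA3, ITGA5, ITGA6 and ITGAV, which encode alpha subunits, and ITGB1, ITGB4, ITGB5 and ITGB8, which encode beta subunits. All 10 were found among the 57820 genes of each count file by matching Ensembl identifiers to symbols. The genes were chosen by name with earlier results of these same libraries in view, that is, with the difference in their counts between control and RUVBL1 siRNA known. That difference is therefore given as a description, without a p-value. RNA sequencing of total RNA was done in C4-2B-ENZR cells, a human prostate cancer cell line whose name marks resistance to the prostate cancer drug enzalutamide. The 3 control libraries came from cells transfected with a negative-control siRNA and the other 3 from cells transfected with an siRNA against RUVBL1, an ATPase of chromatin-remodelling and protein-assembly complexes. All 6 libraries were of this same cell line, and the labels give neither the time after transfection nor the number of siRNA sequences used. Nothing in the labels says that replicates were separate cultures, so the spread between libraries may be technical.

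Integrins are receptors in the cell membrane, each made of an alpha and a beta subunit, that hold cells to the extracellular matrix and to other cells. The beta 1 subunit pairs with many alpha subunits, whereas beta 4 pairs with alpha 6 alone and anchors epithelial cells to laminin in hemidesmosomes. In normal prostate, α6β4 is a feature of basal cells, and prostate tumours often lose it. Talin and kindlin bind beta subunit tails and switch the receptors on, filamin binds the same tails and opposes this, and clustered receptors pass signals to focal adhesion kinase and SRC.

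The siRNA target was lower in every RUVBL1 siRNA library. RUVBL1 was at 57.1% ± 1.23 (SD, n = 3) of the control mean. Library totals ran from 18985542 to 36054489 counts. Both replicate 1 libraries stood apart from the other 4: 541 of the 14111 genes that reached 20 counts in all of those 4 had no count in either. None of the 10 integrin genes was among the 541, and fold changes of the named genes and counts of calls were also computed in replicates 2 and 3 alone. Luminal prostate markers were abundant and basal markers were near 0: the summed level of TP63, KRT5, KRT14 and KRT15 was between 0 and 0.0825 CPM (counts scaled to a common library total), and KRT5 and KRT14 were at 0 in all 6 libraries. The 10 luminal markers summed to between 4525 and 4614 CPM in the control libraries and between 3796 and 3918 in the RUVBL1 siRNA libraries, and 7 of the 10 fell with 0 rising (edgeR adjusted p under 0.05), where 23.1% of all tested genes fell and 19.1% rose. DESeq2, limma-voom and an unadjusted p under 0.05 gave the same counts of 7 and 0. Their part in the integrin result was not tested. Fewer cells of a type and less RNA per cell cannot be told apart in such bulk samples. Of 13 stromal, endothelial and immune markers found, 5 were at 0 in all libraries. The whole list summed to 25.9 to 29.6 CPM in control and 15.4 to 16.8 CPM in RUVBL1 siRNA libraries. Of its 4 tested genes, 2 were called lower (50%, against 23.1% of all tested genes) and 0 higher (against 19.1%). Mean normalized counts in control and RUVBL1 siRNA libraries were 274 and 109 for ACTA2, and 321 and 165 for CD68. For the genes not called they were 83.3 and 79.1 (PDGFRB), and 36.5 and 42.3 (VWF). The part of this list in the result was likewise not tested.

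The sequences before the transcription starts of the listed genes were searched for short motifs, without windows for ITGA3 and ITGB4. RefSeq windows (GRCh38.p14) were found for 8 of the 10 genes, and the 250 bases before the start are printed for the most highly counted subunit gene (ITGB1, the upstream of its windows), for an alpha gene that was lower (ITGA2) and for the alpha gene that was not called (ITGA5). Capitals mark matches to the GC box GGGCGG on either strand, a motif bound by factors of the SP family. The ITGB1 window is chr10:32958231-32958480 on the minus strand, that of ITGA2 is chr5:52989102-52989351 on the plus strand and that of ITGA5 is chr12:54419267-54419516 on the minus strand.
ITGB1: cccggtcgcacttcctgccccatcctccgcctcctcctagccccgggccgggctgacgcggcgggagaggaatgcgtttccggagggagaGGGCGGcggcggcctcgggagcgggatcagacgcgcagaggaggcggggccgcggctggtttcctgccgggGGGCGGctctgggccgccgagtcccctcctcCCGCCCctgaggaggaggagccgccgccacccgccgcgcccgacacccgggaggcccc
ITGA2: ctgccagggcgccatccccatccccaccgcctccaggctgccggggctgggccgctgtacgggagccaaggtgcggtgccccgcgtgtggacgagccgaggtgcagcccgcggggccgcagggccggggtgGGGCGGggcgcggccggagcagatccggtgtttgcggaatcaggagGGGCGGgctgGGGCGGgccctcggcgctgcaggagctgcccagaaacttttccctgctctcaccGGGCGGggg
ITGA5: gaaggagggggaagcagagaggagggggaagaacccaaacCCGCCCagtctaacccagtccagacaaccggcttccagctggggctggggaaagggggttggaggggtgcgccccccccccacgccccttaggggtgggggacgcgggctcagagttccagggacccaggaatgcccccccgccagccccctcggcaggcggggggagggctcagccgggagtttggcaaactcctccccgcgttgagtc
ITGB1 had 3 GC boxes, ITGA2 had 4 and ITGA5 had 1, so a GC box was found both in genes that were lower and in the gene that was not called. The GC content of the windows was 78.4% for ITGB1, 76.4% for ITGA2 and 70.0% for ITGA5. The 8 genes had 13 windows in all, of which 7 (53.8%) held a GC box, against 42.6% of all 35116 windows of that length. A GC box was in a window of 6 of the 8 genes, and in no window of ITGA1 or ITGAV. The AP-1 motif TGANTCA was in no window of the 8 genes, and it was in 6.57% of all windows. The motif TATAAA was in 2 of the 13 windows (15.4%), 1 of ITGA6 and the downstream 1 of ITGB1, and in 10.7% of all windows. The motifs do not overlap one another in their letters, and each was searched on both strands. The counts are per gene and cannot show which start was used.

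Integrin transcripts were mostly lower after RUVBL1 siRNA. Of the 10 genes, 8 passed the low-count filter; 7 of these were called lower, 0 were called higher and ITGA5 was not called in the edgeR fit over all genes (threshold, an adjusted p of 0.05). The counts from DESeq2, limma-voom and an unadjusted p under 0.05 were also 7 and 0, from the same values and so without independent weight. Among all 16006 tested genes, 23.1% were called lower and 19.1% higher. The 7 genes were also those whose groups did not overlap, which was seen for 27.4% of all tested genes in this direction and 25.3% in the other. Since this contrast was known when the genes were listed, nothing is read from these shares. The median log2 fold change of the 8 genes was -0.39, and that of all tested genes was 0.01. The 10 genes together took 886 to 896 CPM in the control libraries and 662 to 669 in the RUVBL1 siRNA libraries.

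**Figure D1:**
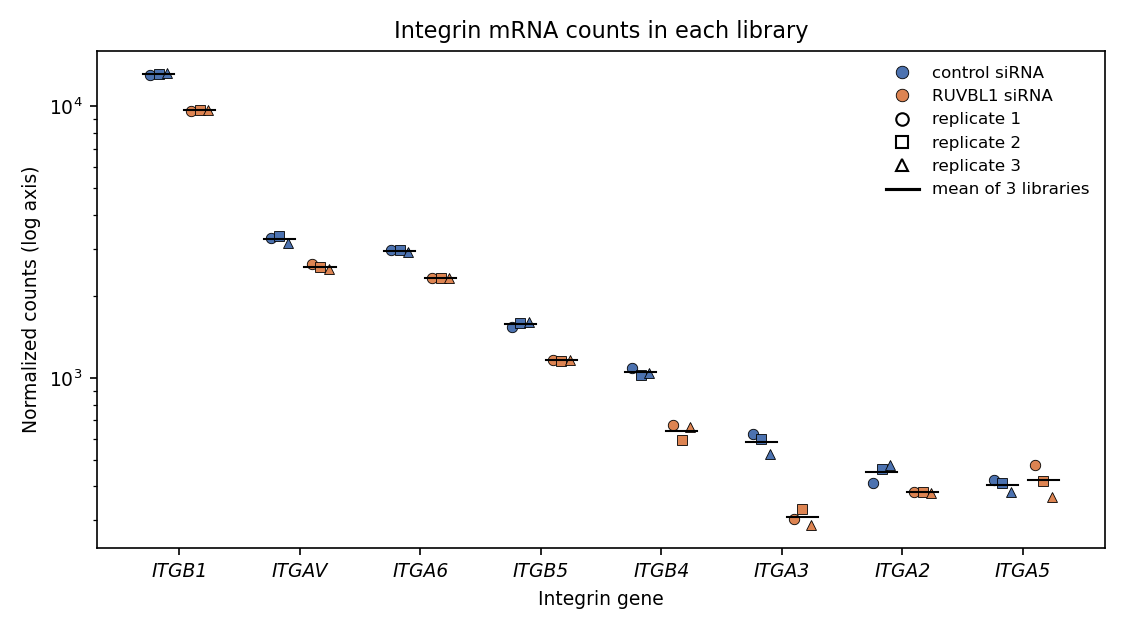
Normalized counts (log axis) of the 8 integrin genes that passed the low-count filter, with a point for each library and a bar at the mean of 3. The RUVBL1 siRNA libraries lie below all control libraries for 7 genes and overlap them for ITGA5.

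ITGB1 (ENSG00000150093.14), the common beta subunit gene, had normalized counts of 13078, 13215 and 13233 with control siRNA, against 9649, 9670 and 9727 with RUVBL1 siRNA. Normalized counts are counts scaled to the same effective library size. Both groups were tight and lay far apart. With RUVBL1 siRNA its level was 73.5% ± 0.307 (SD, n = 3) of the control mean, a log2 fold change of -0.44 (SE 0.0165). Leaving out each library in turn gave values from -0.45 to -0.44.

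Among the listed genes, ITGA3 and ITGA6 encode alpha subunits of laminin receptors, and both were lower, by different amounts. ITGA7, a further laminin receptor gene outside the list, was not called and its groups overlapped. ITGA3 (ENSG00000005884.13), which encodes the alpha subunit of α3β1, had 623, 598 and 526 normalized counts in control libraries and 304, 331 and 288 in RUVBL1 siRNA libraries. Its log2 fold change of -0.92 (SE 0.0786) was the lowest of the 8, and the mean was 52.8% ± 3.72 (SD, n = 3) of control. ITGA6 (ENSG00000091409.10), whose product pairs with beta 1 or beta 4, had 2966, 2953 and 2917 in control libraries and 2345, 2334 and 2334 in RUVBL1 siRNA libraries. The decrease was smaller, at 79.4% ± 0.214 (SD, n = 3) of control and a log2 fold change of -0.33 (SE 0.0265).

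ITGB4 (ENSG00000132470.9), whose product pairs with alpha 6 in hemidesmosomes and binds plectin, had 1090, 1030 and 1049 normalized counts in control libraries and 672, 593 and 661 in RUVBL1 siRNA libraries. The RUVBL1 siRNA libraries were at 60.8% ± 4.02 (SD, n = 3) of the control mean, a log2 fold change of -0.72 (SE 0.0534). The ITGB4 transcript was thus present in cells with basal markers at or near 0.

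Of the 2 listed genes for collagen-binding alpha subunits, ITGA2 had the smallest change of the 7 genes called lower and ITGA1 had almost no counts. ITGA2 (ENSG00000164171.6), whose product forms the collagen receptor α2β1, had 412, 465 and 480 normalized counts in control libraries and 382, 382 and 377 in RUVBL1 siRNA libraries. The gap between the groups was narrow, with control replicate 1 close to the RUVBL1 siRNA libraries. Its log2 fold change was -0.25 (SE 0.0703). The call of ITGA2 was lost with scaling by library totals (log2 fold change -0.15), without control replicate 2 (-0.23) and without control replicate 3 (-0.21). ITGA1 (ENSG00000213949.4), whose product also binds collagen with beta 1, had 7, 4 and 6 counts in control libraries and 0, 0 and 1 in RUVBL1 siRNA libraries, and it did not pass the low-count filter. The pooled ratio of RUVBL1 siRNA to control was 0.0731 with a 95% exact interval of 0.00175 to 0.466, which covers counting error only. Without the filter it was called lower, with a fitted log2 fold change of -3.46 that depends on the prior count.

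The receptors for fibronectin, vitronectin and latent TGF-beta, which recognise an RGD motif, did not move together. ITGA5 (ENSG00000161638.6), the alpha subunit gene of the fibronectin receptor α5β1, had 422, 412 and 383 normalized counts in control libraries and 479, 418 and 365 in RUVBL1 siRNA libraries. The groups overlapped, with RUVBL1 siRNA libraries both above and below all controls. The log2 fold change was 0.05 (SE 0.0926), and it was -0.02 in replicates 2 and 3 alone. ITGAV (ENSG00000138448.7), whose product pairs with beta 1, beta 5, beta 8 and others, had 3269, 3329 and 3153 in control libraries and 2627, 2556 and 2520 in RUVBL1 siRNA libraries. It was at 79.0% ± 1.68 (SD, n = 3) of control, a log2 fold change of -0.34 (SE 0.0305). ITGB5 (ENSG00000082781.7), a partner of ITGAV in the vitronectin receptor αvβ5, had 1546, 1597 and 1604 in control libraries and 1168, 1159 and 1171 in RUVBL1 siRNA libraries. Its mean was 73.7% ± 0.419 (SD, n = 3) of control, with a log2 fold change of -0.44 (SE 0.0313). This SE is slightly below the 0.0326 that counting error alone gives. ITGB8 (ENSG00000105855.5), whose product joins alpha v in activating latent TGF-beta, had 14 counts in the control libraries together and 12 in the RUVBL1 siRNA libraries together. Their ratio was 1.06 with a 95% exact interval of 0.450 to 2.48, so no difference was detectable at this depth.

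**Figure D2:**
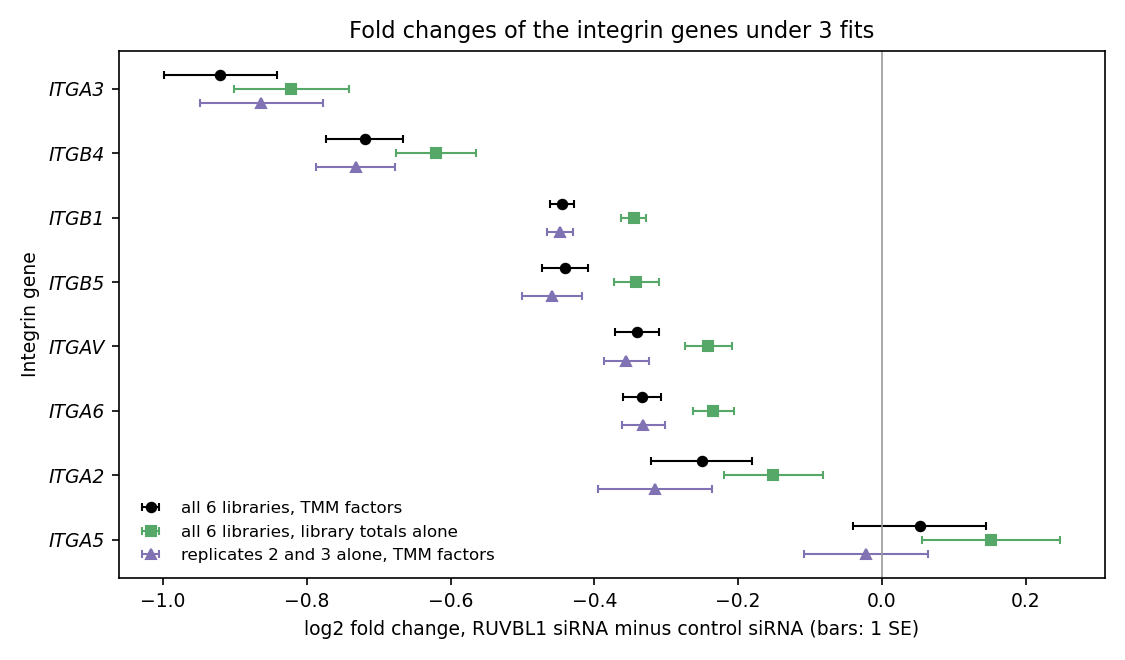
log2 fold changes (RUVBL1 siRNA minus control siRNA) of the 8 integrin genes from all 6 libraries with TMM factors, from all 6 with library totals, and from replicates 2 and 3 with TMM factors, with bars of 1 SE. ITGA3 and ITGB4 lie farthest below 0 in each fit, and ITGA5 is near 0 with a sign that depends on the fit.

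In order of log2 fold change, ITGA3 (-0.92) and ITGB4 (-0.72) came first, then ITGB1 and ITGB5 (both -0.44), then ITGAV (-0.34) and ITGA6 (-0.33), then ITGA2 (-0.25). The neighbours ITGB1 and ITGB5, and likewise ITGAV and ITGA6, differed by less than their SEs. Scaling by library totals, without TMM factors, raised the median log2 fold change over all genes by 0.0993, and 6 integrin genes were called lower and 0 higher. The share of calls that were higher among all genes was then 68.4%, against 45.3% with TMM factors.

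Ratios of counts within a library do not depend on how libraries are scaled, and they show that the integrin subunits did not change in parallel. For every 100 counts of ITGB1, ITGA3 had 4.77, 4.53 and 3.98 with control siRNA and 3.16, 3.42 and 2.96 with RUVBL1 siRNA. ITGA6 went the other way relative to ITGB1, with 22.4 ± 0.316 per 100 in control and 24.1 ± 0.154 in RUVBL1 siRNA libraries (SD, n = 3 each), which did not overlap. ITGA5 per 100 ITGB1 was 3.08 ± 0.170 in control and 4.35 ± 0.608 in RUVBL1 siRNA libraries (SD, n = 3 each), without overlap. The normalized counts of ITGA5 did overlap (log2 fold change 0.05), so this ratio rose mainly because ITGB1, its denominator, was at 73.5% of control. ITGAV per 100 ITGB1 was 24.7 ± 0.737 in control and 26.5 ± 0.664 in RUVBL1 siRNA libraries, and ITGA2 per 100 ITGB1 was 3.43 ± 0.249 and 3.93 ± 0.0442 (SD, n = 3 each), also without overlap.

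The hemidesmosomal pair separated as well. For every 100 counts of ITGA6, ITGB4 had 36.8, 34.9 and 36.0 with control siRNA and 28.6, 25.4 and 28.3 with RUVBL1 siRNA. ITGB5 per 100 ITGAV was 48.7 ± 1.91 in control and 45.4 ± 1.00 in RUVBL1 siRNA libraries (SD, n = 3 each), a small shift without overlap. ITGB5 stayed nearest to ITGB1: it had 11.8, 12.1 and 12.1 counts per 100 of ITGB1 in control libraries and 12.1, 12.0 and 12.0 in RUVBL1 siRNA libraries, which overlap. These ratios use the contrast with which the genes were listed and carry no test. How often the ratios of other genes to ITGB1 separate in this way was not counted.

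**Figure D3:**
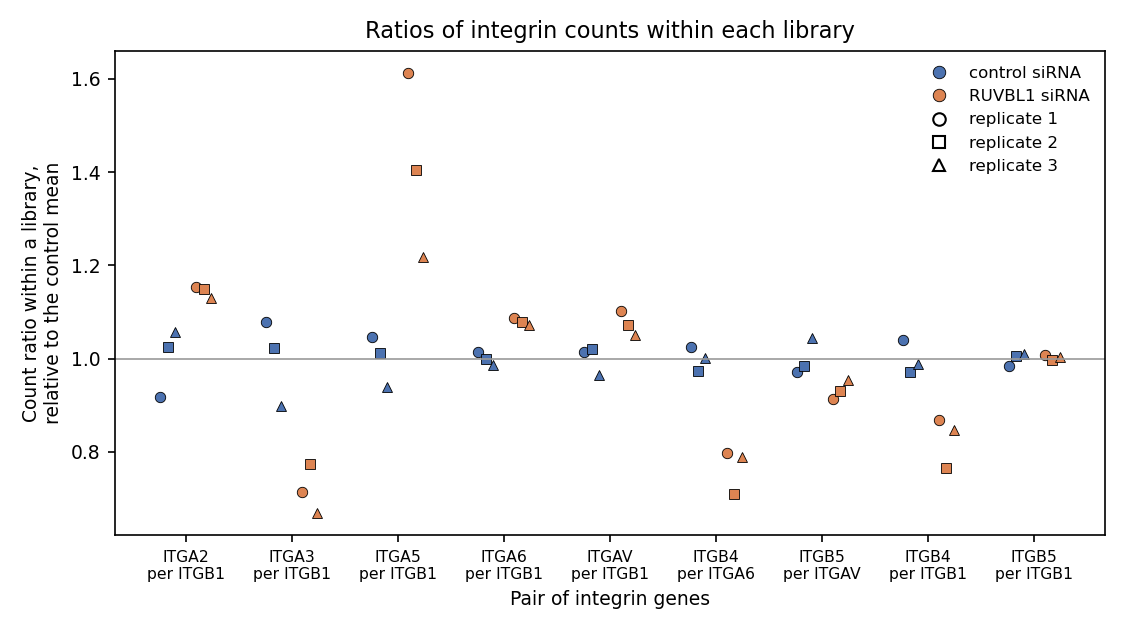
Ratio of the counts of integrin gene pairs within each library, divided by the mean of the control libraries, with a point for each library. ITGA3 per ITGB1 and ITGB4 per ITGA6 are lower in all 3 RUVBL1 siRNA libraries, ITGA5 per ITGB1 is higher and ITGB5 per ITGB1 overlaps.

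Per length of transcript, ITGB1 was the most abundant of the integrin transcripts. With the median length of its GENCODE 29 transcripts, its level was 879 ± 5.67 CPM per kilobase in control and 646 ± 2.70 in RUVBL1 siRNA libraries (SD, n = 3 each). ITGAV followed at 183 ± 5.03 in control, ITGA6 at 115 ± 0.99, ITGB5 at 76.1 ± 1.53, ITGB4 at 42.2 ± 1.22, ITGA3 at 31.0 ± 2.68, ITGA5 at 26.2 ± 1.31 and ITGA2 at 4.76 ± 0.375 (SD, n = 3 each). No 2 neighbours in this order overlapped in the control libraries. The median lengths were uneven, at 569 bases for ITGB1 and 588 for ITGA5 but 3602 for ITGA2. The sizes of the gaps between genes therefore depend on the annotation. With the longest transcript ITGA5 was at 3.08 ± 0.154 and ITGA2 at 2.18 ± 0.171 in control (SD, n = 3 each). The levels depend on the length used: with the longest transcript ITGB1 was at 132 ± 0.853 (SD, n = 3) in control, and ITGA6 (19.9 ± 0.171) then exceeded ITGAV (17.5 ± 0.482), while the order of the other 6 genes did not change. ITGA1 and ITGB8 lay at 0.150 and 0.0440 CPM per kilobase in control with the median length.

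**Figure D4:**
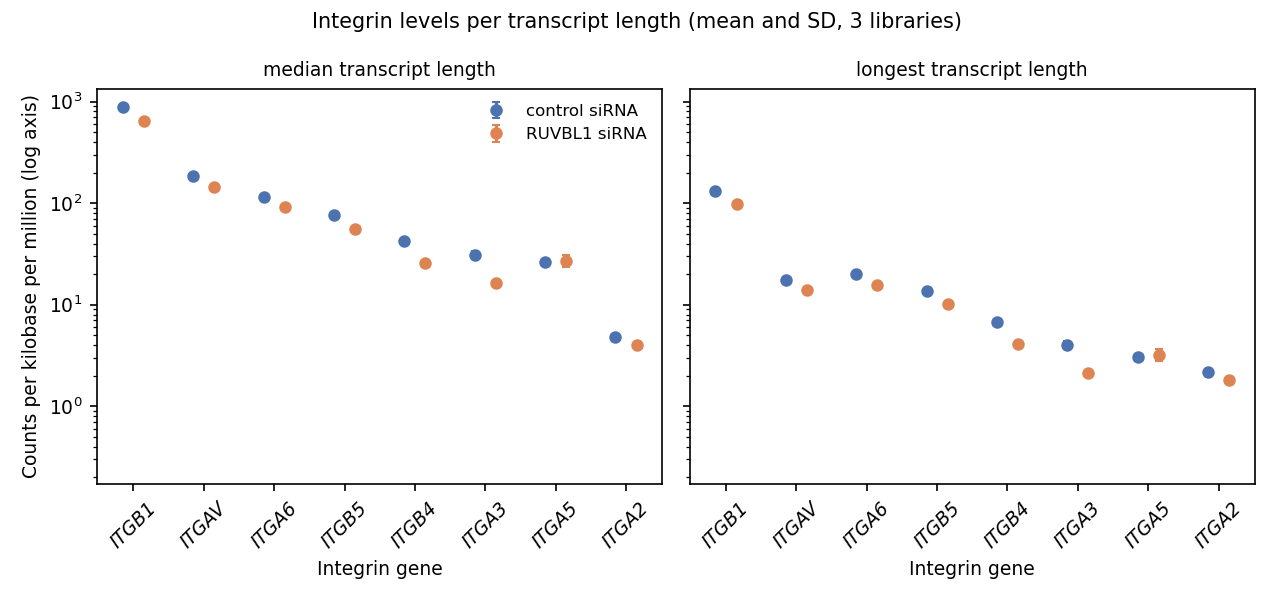
Level of 8 integrin genes in CPM per kilobase (log axis), mean and SD of 3 libraries, with the median (left) or longest (right) GENCODE 29 transcript length. ITGB1 is highest with either length, while ITGAV and ITGA6 exchange places.

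Of 16 other integrin genes, 5 passed the low-count filter. By edgeR 0 of these were called in either direction, where 23.1% of all tested genes were called lower and 19.1% higher. Most of the 5 had few counts and wide SEs, so the lack of calls is no contrast with the listed genes. At an unadjusted p under 0.05, 1 was higher and 0 lower, and DESeq2 and limma-voom called 0. ITGAE, the alpha subunit of an E-cadherin receptor of lymphocytes, was the only 1 of the 5 above 100 normalized counts, with 445 ± 26.5 in control and 466 ± 59.7 in RUVBL1 siRNA libraries (SD, n = 3 each; log2 fold change 0.07). ITGB2, the beta subunit of leukocyte integrins, had 27.3 ± 6.49 and 41.9 ± 4.31 (SD, n = 3 each). Its groups did not overlap, as for 25.3% of all tested genes in this direction. The log2 fold change was 0.61 with an edgeR adjusted p = 0.0800. Scaling by library totals took ITGB2 past the threshold (log2 fold change 0.71, edgeR adjusted p = 0.0408). ITGA7, ITGA2B and ITGB7 had log2 fold changes of -0.21, 0.06 and 0.38 with SEs of 0.253, 0.290 and 0.392. The highest of the 11 genes that were not tested reached 14.1 normalized counts in a library, and 2 of them, ITGA4 and ITGB3, had no count in any library.

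The pathway was described with 6 lists written from general knowledge but with earlier results of this contrast known, so their counts and p-values are not independent of that knowledge. Of the tested proteins that bind beta tails or set receptor activity, 31.2% fell and 18.8% rose, against 23.1% and 19.1% of all tested genes. These were 5 and 3 of 16, and with the replicate number as a block 5 fell and 5 rose. The median log2 fold change was -0.06. FLNA, filamin A, had 8097, 7906 and 7880 normalized counts with control siRNA and 3935, 3926 and 3872 with RUVBL1 siRNA. This is a log2 fold change of -1.03 ± 0.0181 (SE; edgeR adjusted p = 3.51e-12), with all RUVBL1 siRNA libraries far below control. TLN1, talin 1, fell by 0.23 and FERMT1, kindlin 1, by 0.47, both as log2 values (edgeR adjusted p = 3.58e-05 and 0.00013).

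Among kinases and scaffolds of focal adhesions, 9 of 24 tested genes fell (37.5%, against 23.1% of all tested genes) and 2 rose (8.33%, against 19.1%), with a median of -0.08. Under scaling by library totals 5 fell and 7 rose, and 1 rose when any of these was left out: control replicate 2, control replicate 3, RUVBL1 siRNA replicate 1 or RUVBL1 siRNA replicate 2. VCL, vinculin, which ties talin to actin, had 4318, 4455 and 4459 normalized counts in control and 2757, 2734 and 2903 in RUVBL1 siRNA libraries. It fell by 0.66 (SE 0.0289, edgeR adjusted p = 4.77e-09). ACTN4, an actin crosslinker, fell by 0.34, PARVB, beta-parvin of the integrin-linked kinase complex, by 0.29 and LPXN, leupaxin, a paxillin relative, by 0.48 (edgeR adjusted p = 2.68e-08, 3.84e-05 and 4.41e-05).

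Laminin and collagen chains, the ligands of the α2, α3 and α6 receptors, were tested for 13 of 21 genes. Of these, 7 fell (53.8%, against 23.1% of all tested genes) and 2 rose (15.4%, against 19.1%), with a median of -0.33. LAMA5, a laminin alpha chain, had 6414 ± 137 normalized counts in control and 3086 ± 72.4 in RUVBL1 siRNA libraries (SD, n = 3 each), a fall by 1.06 (edgeR adjusted p = 4.28e-11). The laminin chain genes LAMA3 and LAMC1 fell by 0.71 and 0.69 and the basement membrane collagen gene COL4A5 by 0.46 (edgeR adjusted p = 7.09e-10, 2.34e-10 and 1.62e-07). The collagen genes COL16A1 and COL4A2 rose by log2 values of 1.39 and 0.62 (edgeR adjusted p = 2.09e-06 and 0.000945). Both had far fewer counts than LAMA5. COL16A1 had 78.0 ± 8.12 normalized counts in control and 204 ± 11.7 in RUVBL1 siRNA libraries, and COL4A2 had 135 ± 16.4 and 207 ± 6.19 (SD, n = 3 each). LAMB3, a laminin beta chain gene named after its values were seen, had a mean of 19.1 normalized counts in control.

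Ligands of the RGD-binding receptors mostly had few counts, and 5 of 16 genes were tested. Of these, 2 fell (40%, against 23.1% of all tested genes) and 1 rose (20%, against 19.1%), with a median of -0.19. Without control replicate 1, control replicate 2 or RUVBL1 siRNA replicate 2, 2 rose. FN1, fibronectin, had 8857 ± 160 normalized counts in control and 7440 ± 88.5 in RUVBL1 siRNA libraries (SD, n = 3 each), a log2 fold change of -0.25 with an edgeR adjusted p = 5.09e-07, while the log2 fold change of its receptor gene ITGA5 was 0.05. CCN1, a matrix-associated integrin ligand, fell by 0.53 and THBS1, thrombospondin 1, rose by a log2 of 1.33 (edgeR adjusted p = 0.00506 and 0.00822). THBS1 counts were low, at 19.1 ± 8.93 in control and 47.8 ± 1.01 in RUVBL1 siRNA libraries after normalization (SD, n = 3 each).

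Of 11 tested genes for membrane and hemidesmosome partners of integrins, 9 fell (81.8%) and 2 rose (18.2%). Among all tested genes these shares were 23.1% and 19.1%. The median of the list was -0.33, and 1 of its genes rose without control replicate 2 or control replicate 3. PLEC, plectin, which links β4 to keratin filaments, had 10306 ± 206 normalized counts in control and 6149 ± 389 in RUVBL1 siRNA libraries (SD, n = 3 each), a log2 fold change of -0.75 with an edgeR adjusted p = 0.000148. The tetraspanin genes CD9, CD151 and CD81 fell by 0.40, 0.30 and 0.24 (edgeR adjusted p = 9.80e-09, 7.12e-08 and 4.54e-06), and BSG, basigin, fell by 0.40 (edgeR adjusted p = 1.56e-06). The 2 genes that rose, named after their values were seen, were DST and SLC3A2. Their log2 fold changes were 0.17 and 0.12 (edgeR adjusted p = 0.00962 and 0.0328). COL17A1, the transmembrane collagen of hemidesmosomes and also named after its values were seen, did not exceed 12.1 normalized counts in any library.

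Of 18 tested genes that move integrins between endosomes and the surface, 8 rose (44.4%, against 19.1% of all tested genes) and 2 fell (11.1%, against 23.1%), with a median of 0.08, and under scaling by library totals 10 rose and 1 fell. In replicates 2 and 3 alone, and likewise without RUVBL1 siRNA replicate 1, 4 fell. RAB11B, a recycling GTPase, rose by a log2 of 0.33, NUMB, an endocytic adaptor of integrins, by 0.32 and RAB5A, an early endosome GTPase, by 0.23 (edgeR adjusted p = 3.88e-06, 1.25e-05 and 0.000137). SNX17, which binds beta tails and returns integrins from endosomes, had 2098 ± 27.9 normalized counts in control and 1641 ± 57.3 in RUVBL1 siRNA libraries (SD, n = 3 each), a log2 fold change of -0.36 with an edgeR adjusted p = 3.45e-06. Whether these lists differ from one another was not tested.

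**Figure D5:**
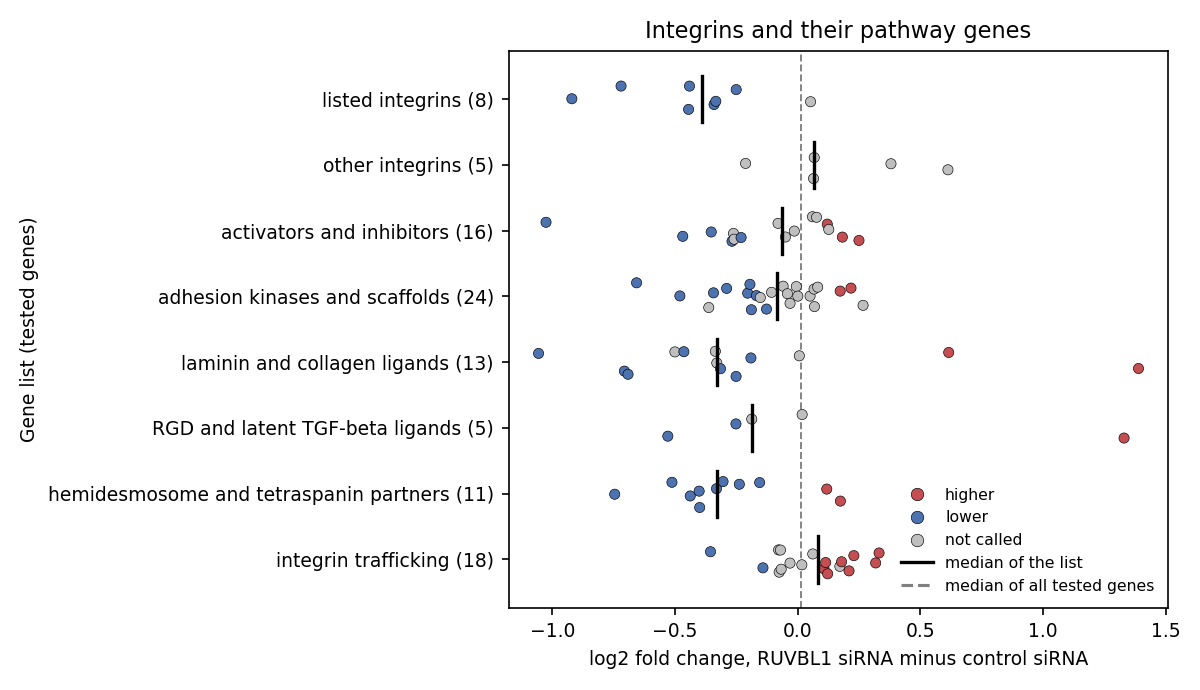
log2 fold changes (RUVBL1 siRNA minus control siRNA) of all tested integrin and pathway genes by list, with a point for each gene coloured by its call, a bar at the median of the list and a dashed line at the median of all tested genes. The listed integrins, the laminin and collagen ligands and the hemidesmosome and tetraspanin partners have medians of -0.39, -0.33 and -0.33, and the trafficking genes have a median of 0.08.

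Over the 6 libraries, the log2 CPM of CHPT1 and SLC35B2 had the highest Pearson r with ITGB1 among 5328 genes with a mean of at least 1000 normalized counts (r = 0.9999 and 0.9998). These points share their libraries and the contrast between the groups, and 534 of the genes had r above 0.99. The log2 fold changes of CHPT1 and SLC35B2 were -0.35 and -0.51.

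Several genes lie over or beside the integrin genes, and the sources used here do not say whether counting used strand. GENCODE 29 places antisense or divergent non-coding RNAs over exons of ITGA1, ITGA5, ITGA6, ITGAV, ITGB1 and ITGB8. Each of these RNAs covers 0.587% to 2.66% of the exonic bases of its integrin gene. On ITGA6 the shares of separate RNAs were 2.66%, 1.91% and 0.796%. None of these RNAs exceeded 15.2 normalized counts in a library. A processed pseudogene on the same strand as ITGA1 shared 3.08% of its exonic bases and had 0 counts in every library. PELO, a gene within ITGA1 on the same strand, shared 2.56% of the exonic bases of ITGA1 and had 646 to 739 normalized counts, so the few counts of ITGA1 are uncertain.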

How the data were processed

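Each of the 6 deposited files holds estimated counts, some fractional and none scaled to library size. Bowtie 0.12.2 is named in the submitters' processing notes, as are mm8 and mm9, which are mouse builds, although the files carry human identifiers. For the counter, human build, annotation, strand setting and filters, the answer is: not given in the sources used here.

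Counts were rounded (totals changed by at most 0.000222%) and 51996 of 57820 genes received a symbol. Group was the only term in edgeR 4.0.16 (R 4.3.3; filterByExpr, TMM factors, robust quasi-likelihood test, two-sided), with Benjamini-Hochberg adjustment over 16006 genes. The SE is the log2 fold change divided by the square root of F. Normalized counts were scaled to the mean effective library size. Code was tested on simulated data. No 2 libraries of a group agreed within counting noise (mean chi-square per gene 1.63 to 3.13).

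The integrin genes and all lists were chosen with earlier results of these data known. Genes named were RUVBL1, the listed integrins, other tested integrins, in each list the 4 called genes with the smallest p and any called gene changed at least 1.5-fold, and the 3 genes most like ITGB1. Not every gene so named is reported here. Same-numbered libraries correlated in their deviations from group means (0.939, 0.819 and 0.823). Replicates 2 and 3 also correlated across numbers (0.817 and 0.807), so the values do not show whether these 2 pair by number. As a pairing, the number was used in the replicate block alone, and the main fit had no such term.

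Alternatives were DESeq2 1.42.0, limma-voom (limma 3.58.1), other scalings and filters, the replicate block, leaving out libraries, and another transcript length. Promoter windows came from RefSeq (GRCh38.p14). GENCODE 29 gave lengths.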

Additional observations from a re-analysis of the deposited data

How the results depend on the processing

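Of the 8 tested integrin genes, all but ITGA2 and ITGA5 kept their direction and call in the 14 alternatives. ITGA5 had a log2 fold change of -0.022 in replicates 2 and 3 alone and ranged from -0.051 (without RUVBL1 siRNA replicate 1) to 0.14 when libraries were left out in turn. Leaving out a library also turned the direction of ITGA2B (-0.065 to 0.23, below 0 without control replicate 2 or RUVBL1 siRNA replicate 1), ITGA7 (-0.36 to 7.2e-05, above 0 without RUVBL1 siRNA replicate 2) and ITGAE (-0.040 to 0.14, below 0 without RUVBL1 siRNA replicate 2), none of which was called.

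Scaling by library totals gave 4981 higher and 2297 lower genes in all, and with it 6 activators and inhibitors rose, 7 adhesion kinases and scaffolds rose and 5 fell, 1 trafficking gene fell and 1 other integrin rose. For activators and inhibitors that rose, DESeq2 size factors, the filter of at least 50 counts in 3 libraries and the replicate block each gave 5. Among RGD ligands that rose, the filter of 50 counts gave 0 and no filter gave 2, and no filter gave 1 adhesion scaffold that rose. In replicates 2 and 3 alone 4 trafficking genes fell. Leaving out each library gave 1 to 2 RGD ligands, 1 to 2 adhesion scaffolds and 1 to 2 hemidesmosome and tetraspanin partners that rose, and 2 to 4 trafficking genes that fell. The level of ITGB1 in control was 132 CPM per kilobase with the longest transcript. Causes were not tested, apart from fewer or more genes tested under the filters.

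The replicate block changed the call of none of the 54 named genes tested. Counts of 14 and 12 for ITGB8, and of 17 and 1 for ITGA1, limit what can be said of them.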

Other observations

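Genes of integrin signalling beyond the naming rule were looked at after their values were seen. PTK2, focal adhesion kinase, had a log2 fold change of 0.05 (SE 0.0371, edgeR adjusted p = 0.313), and it passed the threshold under scaling by library totals (0.15, adjusted p = 0.0051). ILK, integrin-linked kinase, had a log2 fold change of -0.20 and fell by the test (edgeR adjusted p = 0.000723). SRC had a log2 fold change of 0.17 (edgeR adjusted p = 0.0301), and that call was lost in 8 of 14 alternatives, with adjusted p from 0.0504 to 0.131 in those. RAP1A and RAP1B, small GTPases that recruit talin, rose by log2 values of 0.25 and 0.12, and KRIT1, a partner of RAP1, by 0.18 (edgeR adjusted p = 0.000246, 0.00912 and 0.00499). Leaving out RUVBL1 siRNA replicate 2 brought RAP1B to an adjusted p of 0.0534.

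The integrin-associated membrane genes CD82, TSPAN4 and CD47 had log2 fold changes of -0.44, -0.51 and -0.33 (edgeR adjusted p = 0.000722, 0.000221 and 1.23e-05). Of the 4 tested stromal, endothelial and immune markers, those that fell were ACTA2 and CD68, with log2 fold changes of -1.33 and -0.96 (edgeR adjusted p = 1.45e-06 and 8.71e-06). The other two did not pass the test: VWF had a log2 fold change of 0.21 (edgeR adjusted p = 0.487), its groups not overlapping, and PDGFRB -0.07 (edgeR adjusted p = 0.763). MYH11, which was not tested, had 8.78 ± 2.05 normalized counts in control and 14.7 ± 5.56 in RUVBL1 siRNA libraries (SD, n = 3 each), with overlap.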
